A study of Caenorhabditis elegans with 6 samples.

Results

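The superoxide dismutases and catalases of *C. elegans* were examined in worms kept with or without VK2 (vitamin K2). The genes were taken by symbol, *sod-1* to *sod-5* and *ctl-1* to *ctl-3*, and all 8 were found among the 15207 genes that both deposited tables list. The libraries named T1, T2, and T3 came from whole N2 worms, the wild-type strain, held at 20°C on NGM plates that carried VK2 at 0.1 μM. Exposure lasted 7 days and began in young adults, which were moved daily to leave their progeny behind. Those named C1, C2, and C3 came from N2 worms kept in the same way without VK2. Each group therefore had 3 libraries, and nothing in the labels says whether these were separate cultures, so the p-values measure only the spread between these libraries. The question put to these genes was whether their mRNA differed between VK2-treated and control worms.

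Superoxide dismutases turn superoxide, a by-product of respiration, into hydrogen peroxide and oxygen, and catalases break hydrogen peroxide down to water and oxygen. In *C. elegans*, *sod-1* and *sod-5* encode cytosolic copper/zinc enzymes, *sod-2* and *sod-3* encode manganese enzymes of the mitochondrial matrix, and *sod-4* encodes an extracellular copper/zinc enzyme. *ctl-1* encodes a cytosolic catalase and *ctl-2* the catalase of peroxisomes. *sod-3* is widely used as a readout of DAF-16, the FOXO transcription factor at the end of the insulin pathway.

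The values are FPKM, a fragment count corrected for transcript length and library size, summed here over the transcripts of a gene. T1 and C1 stand in a first table, and T2, T3, C2, and C3 in a second. FPKM over all transcripts summed to between 654910 and 686279 in the first table and to between 369349 and 396004 in the second, so levels of VK2 and control libraries were compared inside a table. The sources used here do not state read numbers, and the depth behind each value is therefore unknown. The SD of the log2 difference between 2 libraries of the second table was taken across the 14191 genes tested. It was 0.695 for C2 against C3, 0.649 for T3 against C3, and 0.641 for T2 against C3. In pairs without C3 it was 0.292 for T2 against T3, 0.295 for T3 against C2, and 0.3496 for T2 against C2. C3 thus differed most from the other libraries of this table, and C2 was closer to T2 and T3 than to C3. In bulk RNA of whole worms, fewer cells of a type and less RNA per cell cannot be told apart. Markers of intestine, muscle, neurons, hypodermis, pharynx, and germline were found in all 6 libraries. Of 3 embryo markers both tables list 2, whose sum ran from 0.223 FPKM in C3 to 7.13 in C1. The pharynx sum was 25.4 FPKM in T1 and 19.5 in C1 but 149 to 251 in the second table. The germline sum went the other way, from 625 in T1 and 553 in C1 to between 172 and 249 in the second table. Of 3 sperm markers, *msp-19* and *spe-11* were higher in every VK2 library than in every control library of the same table. Of all genes, 6.83% were higher in that way. The remaining sperm marker overlapped in the second table, at 16.3 FPKM in T2 and 14.5 in T3 against 18.1 in C2 and 11.9 in C3. The sum of the 3 was 162 FPKM in T1 against 90.5 in C1. In the second table it was 90.0 in T2 and 85.6 in T3 against 86.2 in C2 and 51.9 in C3, which overlap. The part of sperm RNA in the values below was not tested.

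*sod-3* had the largest fitted difference of the 8 genes over both tables, although *sod-5* differed more within each table, in opposite directions. It lies on chromosome X of WBcel235 at chrX:17092718-17094223 (WBGene00004932, plus strand), and both tables list 1 transcript of it, C08A9.1. It had 28.0 FPKM in T1 against 18.6 in C1, and 30.2 in T2 and 27.5 in T3 against 20.2 in C2 and 16.4 in C3. Every VK2 library was thus above every control library of its table. The ratio was 1.51 in the first table, and in the second the mean was 28.8 ± 1.91 in VK2-treated worms and 18.3 ± 2.68 in control worms (SD, n = 2 each), a ratio of 1.58. On the log2(FPKM + 1) scale the fitted difference was 0.61 (standard error 0.15, 95% interval 0.25 to 0.98).

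The test was limma, two-sided, with terms for treatment and table and Benjamini-Hochberg adjustment over all 14191 genes. *sod-3* had an unadjusted p of 0.00561, rank 33 of all genes tested, and an adjusted p of 1.00. No gene passed an adjusted p of 0.05 (0.00% of genes, smallest adjusted p 0.708), nor did any by an unmoderated F-test, while 507 genes in limma and 416 by the F-test had an unadjusted p below 0.05. When single libraries were dropped, the difference of *sod-3* ranged from 0.53 without C3 to 0.69 without C2. The unadjusted p ranged from 0.00154 to 0.0943 over 21 alternatives and was below 0.05 in 20 of them, the exception being the fit with no table term. Its adjusted p ranged from 0.314, without C2, to 1.00. The alternatives reuse the same libraries and are not separate evidence. The fits without T1, without C1, and with the second table alone give the same difference for *sod-3*, 0.64. *sod-3* was the only 1 of the 8 genes with an unadjusted p below 0.05, where 3.57% of all genes had one, and the only 1 higher by at least 1.5 times in the fit, where 3.33% of all genes were.

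**Figure D1:**
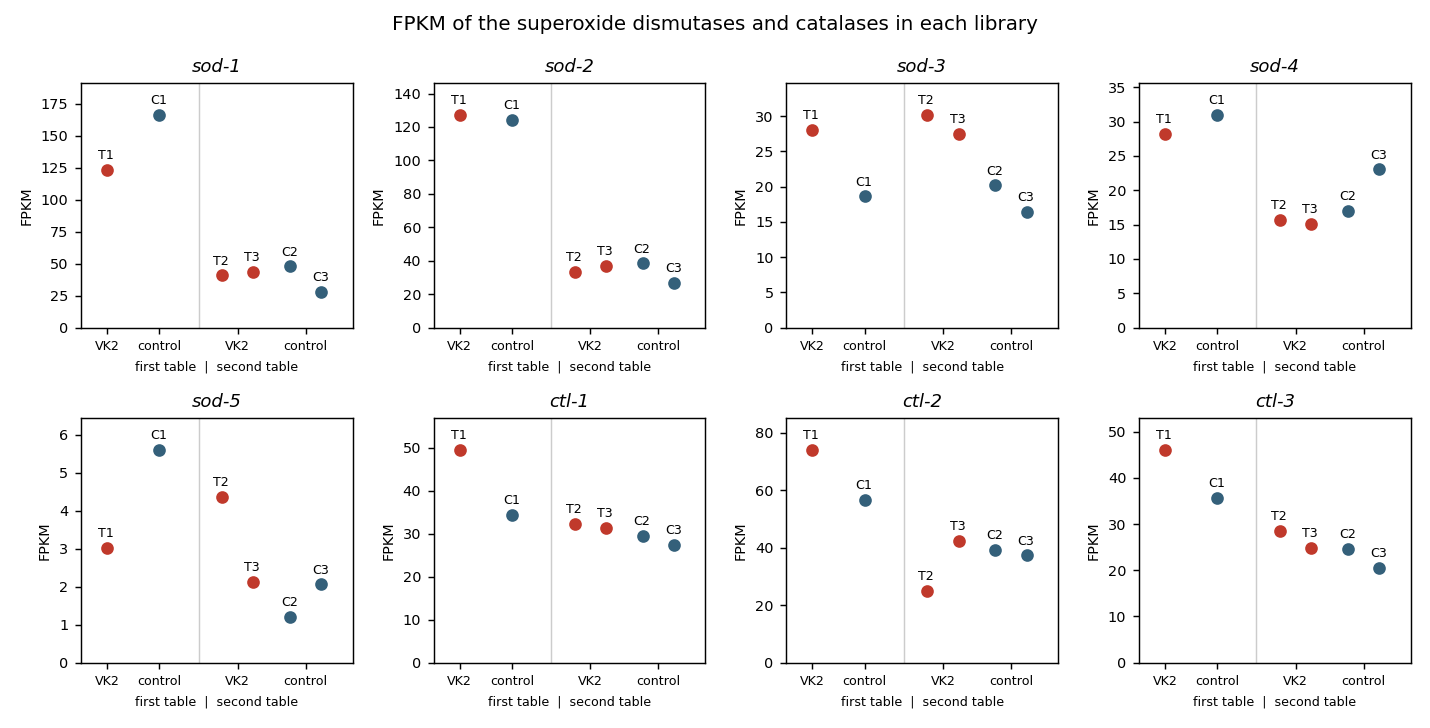
FPKM of each of the 8 genes (y axis, from 0, linear) in each library, with VK2-treated worms in red and control worms in blue, the first table left of the line and the second right of it. For *sod-3*, T1 at 28.0 is above C1 at 18.6, and T2 and T3 are above C2 and C3, whereas for *sod-1* C2 at 47.9 is above T2 and T3 and C3 at 28.2 is below them.

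The other mitochondrial enzyme, *sod-2* (WBGene00004931, chromosome I), had 127 FPKM in T1 against 124 in C1, and 33.5 in T2 and 37.0 in T3 against 38.4 in C2 and 26.8 in C3. The VK2 values of the second table lay between those of the controls. The fitted difference was 0.098 (standard error 0.17, 95% interval -0.31 to 0.51), and without C3 it was -0.055. The first table lists 3 transcripts of *sod-2*, of which F10D11.1.3 held 98.5% of the FPKM in both T1 and C1, and the second lists that transcript alone. The ratio of *sod-3* to *sod-2* needs no scaling between libraries. It was 0.220 in T1 against 0.150 in C1, and 0.900 in T2 and 0.743 in T3 against 0.525 in C2 and 0.612 in C3. The share of *sod-3* in the summed FPKM of the 5 superoxide dismutases was 9.03% in T1 against 5.38% in C1, and 24.2% in T2 and 21.96% in T3 against 16.2% in C2 and 17.0% in C3. Both measures were higher in every VK2 library than in every control library of its table, and they rest on the same *sod-3* values as the test.

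Of the cytosolic pair, *sod-1* (WBGene00004930, chrII:6972712-6973892, minus strand) had the highest mean of the 8 genes in each table. It had 124 FPKM in T1 against 167 in C1, and 40.8 in T2 and 43.4 in T3 against 47.9 in C2 and 28.2 in C3. T1 was below C1, and T2 and T3 lay between their controls. The fitted difference was -0.015 (standard error 0.24, 95% interval -0.57 to 0.54). It was -0.29 without C3, 0.14 without C2, and 0.19 without T1 or without C1, so its sign depended on the library left out. Its 3 listed transcripts kept near shares of the gene: C15F1.7a held 38.4 to 49.3% and C15F1.7b.2 held 44.2 to 54.5% over the 6 libraries.

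*sod-5* (WBGene00007036, chrII:4417683-4419131, plus strand), the minor cytosolic enzyme, had the lowest FPKM of the 8 genes in every library. It was 3.02 in T1 against 5.602 in C1, and 4.36 in T2 and 2.12 in T3 against 1.21 in C2 and 2.06 in C3. T1 was below C1, but T2 and T3 were above both controls of their table, T3 by only 0.029 on the log2 scale over C3. T2 stood at 2.06 times T3, and the ratio of the VK2 mean to the control mean in that table was 1.98. The fitted difference was 0.20 (standard error 0.36, 95% interval -0.66 to 1.05), and it was -0.16 without T2 and -0.067 without C2.

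The extracellular enzyme *sod-4* (WBGene00004933, chrIII:9497019-9500202, minus strand) was the 1 gene with every VK2 library below every control library of its table. It had 28.2 FPKM in T1 against 31.003 in C1, and 15.7 in T2 and 15.1 in T3 against 17.0 in C2 and 23.04 in C3. The gap was narrow apart from C3, which stood above the other 3 libraries of its table. The fitted difference was -0.27 (standard error 0.17, 95% interval -0.68 to 0.13, unadjusted p 0.158 in limma), and -0.13 without C3. The separation was lost when FPKM was rescaled to the same sum in each library.

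*sod-4* has several splice forms, and worms are known to make a secreted and a membrane-bound form of the enzyme from them. The tables list F55H2.1a, with 528 coding bases in the Ensembl annotation, and F55H2.1b, with 663. F55H2.1a had 20.9 FPKM in T1 against 26.6 in C1, and 11.7 in T2 and 8.13 in T3 against 8.90 in C2 and 12.5 in C3. F55H2.1b had 7.24 FPKM in T1 against 4.37 in C1, and 3.95 in T2 and 6.99 in T3 against 8.07 in C2 and 10.5 in C3. The lower sum was therefore not shared by either form across both tables: F55H2.1a overlapped between the groups of the second table, and F55H2.1b was below both controls there but above C1 in the first table. The share of F55H2.1b was 25.7% in T1 against 14.1% in C1, and 25.2% in T2 and 46.2% in T3 against 47.5% in C2 and 45.7% in C3.

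The 3 catalase genes stand in a row on the minus strand of chromosome II, with *ctl-2* at chrII:14299553-14302083, *ctl-1* at chrII:14303612-14306329, and *ctl-3* at chrII:14307854-14310779. In the Ensembl annotation of WBcel235, 1540 bases lie between *ctl-2* and *ctl-1* and 1537 between *ctl-1* and *ctl-3*, with 0 genes wholly inside either gap. These genes are related copies of each other, and the sources used here do not state how reads shared among them were handled, so the split between them is less certain than their sum.

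*ctl-1* (WBGene00000830) had 49.5 FPKM in T1 against 34.3 in C1, and 32.2 in T2 and 31.4 in T3 against 29.4 in C2 and 27.5 in C3. *ctl-3* (WBGene00013220), which is expressed in pharyngeal muscle and neurons, had 46.1 FPKM in T1 against 35.6 in C1, and 28.5 in T2 and 24.9 in T3 against 24.7 in C2 and 20.6 in C3. For both genes every VK2 library was above every control library of its table, *ctl-3* by a margin of only 0.013 on the log2 scale between T3 and C2. The fitted differences were both 0.28, with standard errors of 0.15 and 95% intervals of -0.079 to 0.63 for *ctl-1* and -0.087 to 0.64 for *ctl-3*. Their unadjusted p-values in limma were 0.108 and 0.115, and within the second table alone the differences were 0.16 for *ctl-1* and 0.23 for *ctl-3*. With each library left out, *ctl-1* ranged from 0.16 to 0.34 and *ctl-3* from 0.22 to 0.36. The sum of 2 pharynx markers was 25.4 FPKM in T1 against 19.5 in C1, and 193 in T2 and 214 in T3 against 251 in C2 and 149 in C3. The sum of 4 neuron markers was 250.4 FPKM in T1 against 255 in C1, and 156 in T2 and 157 in T3 against 149 in C2 and 175 in C3. Both sums overlapped in the second table. Of the 4 neuron markers, 2 had a fitted difference above 0 and 2 below 0. The neuron marker *snb-1*, with a fitted difference of -0.12, was below every control of its table in every VK2 library. Of all genes, 5.98% were below in that way. The part of either tissue in the *ctl-3* values was not tested.

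*ctl-2* (WBGene00000831), the most abundant catalase in 5 of the 6 libraries, had 74.1 FPKM in T1 against 56.6 in C1, and 25.04 in T2 and 42.5 in T3 against 39.3 in C2 and 37.4 in C3. T1 and T3 were above every control of their tables, whereas T2 was the lowest library of its table. The fitted difference was -0.022 (standard error 0.24, 95% interval -0.58 to 0.54), and its sign turned without T2 (0.25), without C2 (0.057), or without C3 (0.016). The low value of T2 lay in 1 of the 2 listed transcripts: Y54G11A.5.2 had 19.8 FPKM in T2 but 37.5 in T3, against 36.1 in C2 and 33.7 in C3. The other, Y54G11A.5.1, had 5.25 FPKM in T2 and 4.996 in T3, against 3.14 in C2 and 3.66 in C3. In T2, *ctl-2* held 29.2% of the summed FPKM of the catalases, and in the other 5 libraries it held 42.1 to 44.7%.

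The catalases together had 170 FPKM in T1 against 127 in C1, and 85.7 in T2 and 98.8 in T3 against 93.4 in C2 and 85.4 in C3. The sum was higher in T1 than in C1, and the groups of the second table overlapped. The 5 superoxide dismutases together had 310.2 FPKM in T1 against 346 in C1, and 124.6 in T2 and 125 in T3 against 124.7 in C2 and 96.4 in C3. T2, T3, and C2 differed by less than 1 FPKM, and C3 stood below them.

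**Figure D2:**
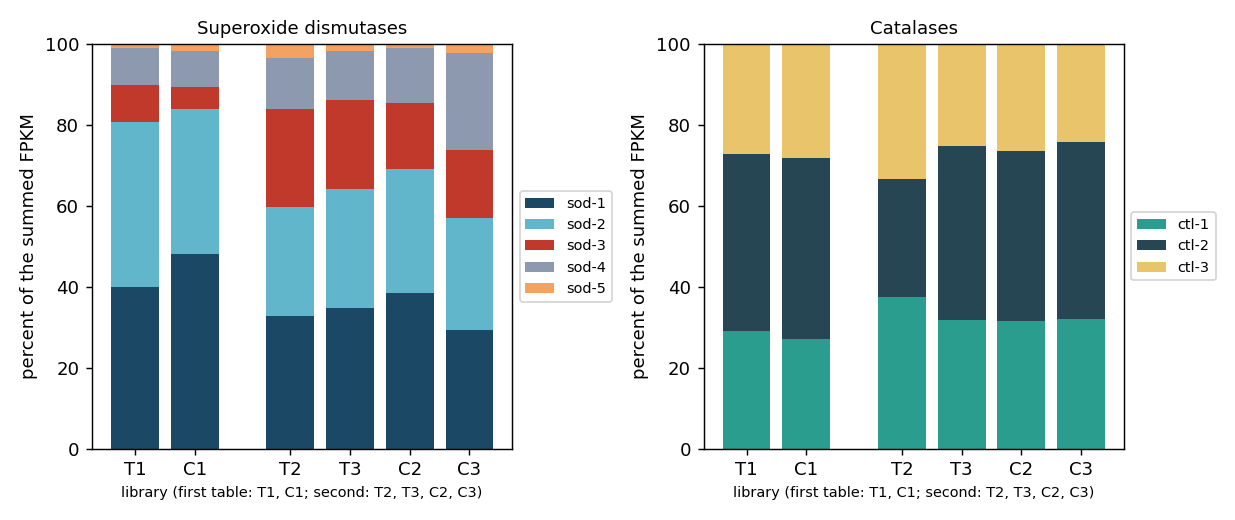
Share of each gene (y axis, percent) in the summed FPKM of the 5 superoxide dismutases (left) and of the 3 catalases (right) in each library, T1 and C1 from the first table and T2, T3, C2, and C3 from the second. The *sod-3* segment is larger in each VK2 library than in each control library of its table, *sod-4* takes 23.9% in C3, and *ctl-2* takes 29.2% in T2 and at least 42.1% elsewhere.

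In order of mean FPKM, the first table gave *sod-1*, *sod-2*, *ctl-2*, *ctl-1*, *ctl-3*, *sod-4*, *sod-3*, and *sod-5*. The ranges of *sod-1* and *sod-2* overlapped there, as did those of *ctl-1* and *ctl-3*. The second table gave *sod-1*, *ctl-2*, *sod-2*, *ctl-1*, *ctl-3*, *sod-3*, *sod-4*, and *sod-5*. In the second table the ranges of every pair of neighbours overlapped over the 4 libraries, except that *sod-4*, from 15.1 to 23.04, was apart from *sod-5*, from 1.21 to 4.36. *sod-3* was above *sod-4* in T2, T3, and C2, but below it in C3, and in the first table it was below *sod-4* in both libraries.

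As a group, 5 of the 8 genes had a fitted difference above 0, against 55.1% of all genes, and 3 had one below 0. The median was 0.15, where the median of all genes was 0.022. Under rescaling to the same FPKM sum in each library, 7 of the 8 were above 0 and the median was 0.23, but that scaling also put 64.1% of all genes above 0. Separation within both tables was found above the controls for 3 of the 8 genes (*sod-3*, *ctl-1*, and *ctl-3*), against 6.83% of all genes, and below the controls for 1 (*sod-4*), against 5.98%. These genes were chosen with earlier results of the data known. Without C3, the 3 genes above the controls were the same, with 13.5% of all genes, and *sod-1* joined *sod-4* below them, where 25.8% of all genes were below. Without C2, *sod-2* joined the 3 above, with 24.5% of all genes. None of the 8 genes differed in its VK2 effect between the tables at an unadjusted p below 0.05 of the limma interaction, where 1.81% of all genes did.

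**Figure D3:**
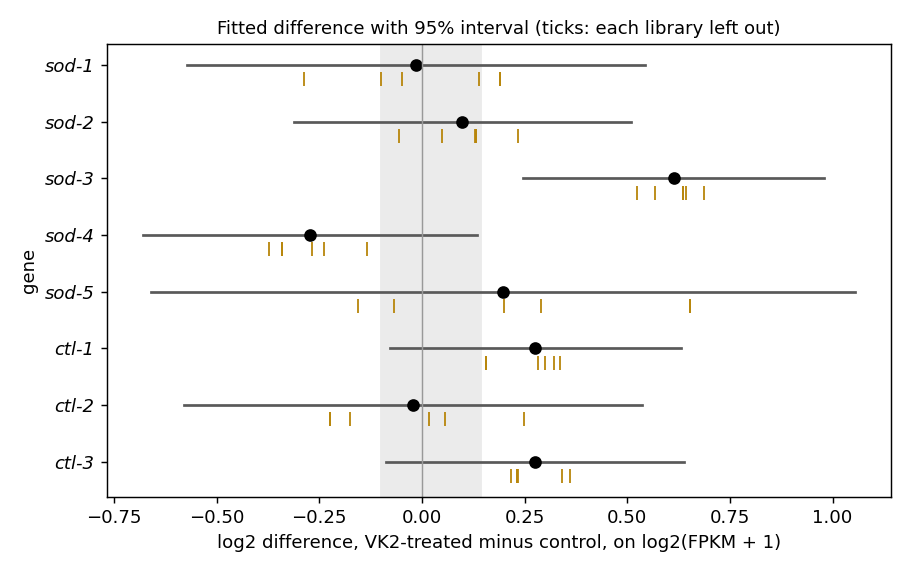
Fitted difference of each gene between VK2-treated and control worms (x axis, log2(FPKM + 1) scale) as a point with its 95% interval, with ticks below it for the fits that lack 1 library. The grey band holds the middle 50% of all 14191 genes. The interval of *sod-3*, 0.25 to 0.98, lies above 0, and those of the other 7 genes include 0.

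Other routes remove hydrogen peroxide and repair oxidized proteins, among them peroxiredoxins, thioredoxins, and enzymes that use glutathione. Of 26 such genes listed by symbol, 22 were tested. The fitted difference was above 0 for 5 and below 0 for 17, with a median of -0.062, where 55.1% of all genes were above 0. When FPKM was rescaled to the same sum in each library, 11 were above 0 and 11 below, where 64.1% of all genes were above 0. None of the 22 had an unadjusted p below 0.05 in limma. The largest differences were 0.37 in *gpx-6* (standard error 0.24), -0.35 in *glrx-10*, a glutaredoxin (standard error 0.19), and -0.28 in *gpx-1* (standard error 0.17). *gpx-1* and *gpx-6* encode glutathione peroxidases. Every VK2 library was below every control library of its table for 4 of the 22, which were *gpx-1*, *prdx-2* (a peroxiredoxin), *gsr-1* (glutathione reductase), and *gcs-1* (the rate-limiting enzyme of glutathione synthesis), and above them for 0, against 5.98% of all genes below and 6.83% above. *prdx-2* had 540.0 FPKM in T1 against 609 in C1, and 237 in T2 and 309 in T3 against 309.9 in C2 and 326 in C3.

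Of 13 regulators of oxidative stress genes, all tested, 10 had a fitted difference above 0, against 55.1% of all genes, and 0 had an unadjusted p below 0.05 in limma. Without C3, 6 of the 13 were above 0, against 42.0% of all genes, and without C2, 12 were, against 60.9%. Their median was 0.075, and it was -0.022 without C3 and 0.22 without C2. *daf-16*, whose product activates *sod-3*, had 109.7 FPKM in T1 against 85.0 in C1, and 69.9 in T2 and 69.1 in T3 against 71.6 in C2 and 60.8 in C3. Its fitted difference was 0.17 (standard error 0.14), and the groups of the second table overlapped. The largest difference was 0.51 in *smk-1*, a partner of DAF-16 (standard error 0.28, 49.8 FPKM in T1 against 18.8 in C1, with overlap in the second table). *age-1*, the phosphoinositide kinase of the insulin pathway, was also among the 3 largest, at 0.18. *wdr-23*, which holds down the stress regulator SKN-1, was the 1 regulator with every VK2 library above every control library of its table, with a fitted difference of 0.093, and 6.83% of all genes were separated in that way.

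Some of the genes overlap a gene on the other strand. Of the 881 exonic bases of *sod-3*, 65 are shared with C08A9.3 and 24 with *lido-1*, which had 7.26 FPKM in T1 against 8.59 in C1, and 3.57 in T2 and 4.51 in T3 against 4.24 in C2 and 3.24 in C3. C08A9.3 is not among the genes found in both tables and has no value here, and *lido-1* was below C1 in T1 and overlapped between the groups of the second table. The part of either gene in the *sod-3* values was not tested. *sod-4* shares 175 of 1306 exonic bases with *ctr-9*, which was above *sod-4* in every library. *ctr-9* had 65.2 FPKM in T1 against 71.0 in C1, and so was lower in T1, as *sod-4* was. In the second table *ctr-9* overlapped between the groups, at 27.7 in T2 and 28.7 in T3 against 32.9 in C2 and 25.1 in C3. Its part in the *sod-4* values was not tested. *sod-2* shares 21 of 802 exonic bases with *dpt-1*, and *sod-1* shares 85 of 720 with C15F1.13, which has no value here. *ctl-2* shares 65 of 1611 with Y54G11A.7, which had 30.98 FPKM in T1 against 22.1 in C1, and 13.4 in T2 and 11.1 in T3 against 13.3 in C2 and 19.3 in C3. It was higher in T1 than in C1, as *ctl-2* was, and its part in the *ctl-2* values was not tested. The kit kept the strand of the RNA, but the sources used here do not state whether the quantification used it.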

How the data were processed

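RNA was sequenced as paired ends from stranded libraries. Per the labels and the methods, the authors aligned reads to WBcel235 with Hisat2 and calculated FPKM with Ballgown. The submitters' processing notes name HISAT2 2.1.0, STAR 2.5.2b, StringTie, and cutadapt. The deposited FPKM tables hold 24354 and 25370 transcripts. In the first, 49 rows have joined cells and were read from the right.

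FPKM was summed per gene. Genes that both tables list and whose FPKM averaged 1 or more across the 6 libraries were tested with limma 3.58.1 in R 4.3.3 (trend on, robust off, two-sided, Benjamini-Hochberg adjustment) on log2(FPKM + 1), which understates the change of low genes. The terms were VK2 and the table, and their interaction was fitted separately. With FPKM only, no counts were available. The code was tested on simulated data. Positions come from the deposited tables, and exon overlaps and gaps from Ensembl release 115, whose gene ends differ slightly.

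The genes named were the 8 members, the 3 largest differences of each list, separated list genes, and genes most like a member, except 1 list gene that is not reported here. The members and lists were chosen with earlier results of these data known. The rescaling to equal sums, the crossed block, and the settings for counts of separated genes were added after the data were seen. Alternatives were pseudocounts of 0.1 and 5, other filters and scalings, the trend, robust, and unmoderated forms, the highest transcript, no table term, a replicate block, the second table alone, and each library left out. Sequences were not used here.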

Additional observations from a re-analysis of the deposited data

Results flagged for a closer look

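*sod-5* was below its control in the first table (3.02 FPKM in T1 against 5.602 in C1). In the second it was above both controls (4.36 in T2 and 2.12 in T3 against 1.21 in C2 and 2.06 in C3). T3 was above C3 by only 0.029 on the log2 scale. The order of the groups for *sod-5* was thus opposite in the tables, at low FPKM in each. The limma interaction gave a difference of 1.37 on the log2 scale between the effect in the second table and that in the first (standard error 0.62, 95% interval -0.16 to 2.90), with an unadjusted p of 0.0711 and an adjusted p of 1.00. The first table has 1 library per group, which the test takes to vary like those of the second. The table cannot be told apart from any batch that the libraries were made in.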

How the results depend on the processing

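Over the alternatives, *sod-3*, *ctl-1*, *ctl-3*, and *sod-4* kept their signs, and no member passed an adjusted p of 0.05 in limma. Other filters, the trend, robust, and unmoderated forms, no table term, and the blocks leave the fitted difference unchanged. The sign could therefore turn only with the pseudocounts, the scalings, the highest transcript, the second table alone, or a library left out. The difference of *sod-1* was 0.021 with quantile normalization, 0.19 in the second table alone, and 0.030 with equal sums, and that of *ctl-2* was 0.018 with equal sums. With each library left out, the range was -0.29 to 0.19 for *sod-1*, -0.055 to 0.23 for *sod-2*, -0.16 to 0.65 for *sod-5*, and -0.22 to 0.25 for *ctl-2*. At a mean FPKM of at least 5, *sod-5* was not tested. Genes called ranged from 0 to 2 with a library left out, and those at an unadjusted p below 0.05, 507 in all libraries, from 155 (without T2) to 1586 (without C2), with 1023 without C3. The number at an unadjusted p below 0.05 was 260 at a mean FPKM of at least 5, 70 with no table term, and 199 in the second table alone. The interaction called 0 genes, but 1 with a pseudocount of 5, 1 with the unmoderated test, 1 with the highest transcript, and from 1 to 1566 (without C2) with a library left out. Members below every control ranged from 1 to 2 with a library left out and were 0 with equal sums.

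Libraries of the same number correlated across genes, after the group means were removed, at 0.881 for T1 and C1, 0.556 for T2 and C2, and 0.543 for T3 and C3. T2 with C3 (0.608) and T3 with C2 (0.613) were above the same-number pairs of the second table but below T1 with C1. The difference between the tables stays in these values, so they cannot show whether the numbers mark pairs. Within the second table, C2 minus C3 correlated with T2 minus T3 at -0.111. With the replicate block, 0 genes were called and 588 had an unadjusted p below 0.05, and *sod-3* had an unadjusted p of 0.00694. The crossed block gave 0 and 616. Depth is unknown, so no limit of detection can be given.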

Other observations

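Likeness of pattern was measured by Pearson's r of log2(FPKM + 1) over the 6 libraries with the mean of each table removed, which leaves few free values per gene, so high values are common among 14191 genes. The member nearest to *sod-3* was *ctl-3*, at 0.927, and the member nearest to *ctl-1* was also *ctl-3*, at 0.876. *sod-1* and *sod-2* were nearest to each other, at 0.843. *sod-4*, *sod-5*, and *ctl-2* had no member above 0.241. Among all genes, those most like *sod-3* were C50F2.5 (0.999) and *glt-5* (0.997), and those most like *ctl-3* were *clp-6* (0.999) and *ssp-36* (0.999). C41G7.6 and F49C12.15 were most like *ctl-1*, T19C3.2 and *zmp-1* most like *sod-4*, *mcd-1* and *iglr-2* most like *sod-1*, and *his-32* and T02E9.5 most like *sod-2*. For *sod-5* they were C23H3.3 and *gcl-1*, both at 0.984, and for *ctl-2* T08B1.1 and *cls-2*, both at 0.993. The points share libraries, and no test was made of these values.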
